A study of Danio rerio with 16 samples.

Results

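Genes of 3 connected cell-junction and cytoskeletal systems were examined in hearts dissected from zebrafish embryos at 48 h post-fertilization (hpf): keratins, claudins, and the components of desmosomes together with the regulators that switch on surface epithelium. They were taken by symbol alone, as all keratin genes (*krt* followed by a digit, *krtt1c*, *cyt1*), all claudin genes (*cldn*), the plakins *evpla* and *ppl*, the desmosomal genes *dsg2.1*, *dsc2l*, *jupa*, *pkp2* and *pkp3a*, and *tp63*, *epcam* and the *grhl* genes. This gave 63 of the 15419 genes in the count tables. Symbols of *dsp* and *jupb* were sought as well but were not among those genes, so neither was analysed here. DKO hearts came from Tubingen embryos homozygous for frameshifting deletions in both *rbfox1l* (allele chb5) and *rbfox2* (allele chb6), that is rbfox1l-/-; rbfox2-/-. Control (CTRL) hearts came from their siblings, which the sample labels call sibling controls and the series description calls wild type. All embryos carried the *myl7:GFP* reporter, which marks cardiomyocytes and makes the heart visible under a fluorescence microscope. Each of the 8 CTRL and 8 DKO libraries was made from poly(A) RNA of a separate pool of hearts, so every value is an average over many hearts and over all cells dissected with them.

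Keratins form the intermediate filaments of epithelial cells, always as pairs of a type I and a type II chain. Desmosomes rivet these filaments to the neighbouring cell through the cadherins desmoglein and desmocollin, the armadillo proteins plakoglobin and plakophilin, and the plakins. Claudins are membrane proteins that form tight junctions, the seal between epithelial cells. Many of these genes are known from the epidermis, which in the zebrafish embryo is an outer periderm over a basal layer. A few are used by the heart itself: cardiomyocytes anchor desmin rather than keratin filaments at their desmosomes, and endothelial cells seal with claudin 5. The members were therefore sorted into 9 classes by what their products are known to do. The sorting was made with earlier results of these data known, so the counts by class below are descriptions and not tests. The 4 epidermal classes were epidermal keratins, epithelial plakophilins and plakins, claudins of surface epithelia, and epidermal transcription factors with *epcam*. The remaining classes were desmosomal genes that the heart uses, endothelial claudins, simple epithelial keratins, keratins with no site assigned, and other claudins.

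Reads counted on genes came to between 8809208 and 12991978 per CTRL library and between 9321265 and 18783628 per DKO library. A further 59.6% to 65.6% of the sorted reads were assigned to no gene by the count, whose strand setting is not given. The targeted genes followed their labels: *rbfox1l* had 261 to 666 CPM (TMM-normalized reads of a gene relative to all gene reads) in CTRL and 37.7 to 93.8 in DKO libraries, and *rbfox2* 47.6 to 154 and 23.5 to 39.6. Cardiomyocyte markers were abundant in every library, with summed levels of 18726 to 37615 CPM in CTRL and 7944 to 19145 CPM in DKO hearts. A gene is said below to have risen or fallen when its Benjamini-Hochberg adjusted p-value over all 11750 genes tested was under 0.05 in edgeR's quasi-likelihood F-test and its change was over 1.5-fold. Log2 changes are DKO over CTRL and are given ± their standard error (SE) from the same fit. The study describes each replicate as coming from several independent crosses, and the p-values measure the spread between these pools.

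The 63 genes took 0.745% to 2.85% of the gene reads in CTRL libraries (median 1.56%) and 2.43% to 5.21% in DKO libraries (median 3.80%). Of the 45 that passed the filter on low counts, 21 rose and 2 fell in DKO hearts. Over all genes tested, 9.06% rose (1065) and 8.54% fell (1004; 1530 and 736 when scaled on library size alone), with a median log2 fold change of 0.02, against 0.91 for these 45. The values of 37 of the 45 were positive, against 52.3% of all genes tested. With a deposited FPKM over 5 in a library required as well, 14 rose and 1 fell, against 3.32% and 4.66% of all genes. Among the risers dropped by this filter, *jupa* and *tp63* had no FPKM value, and *grhl1* had at most 2.13 FPKM at up to 68.5 CPM. Of the 21 tested genes of the 4 epidermal classes, 18 rose, 0 fell and the remaining *krt91*, *krtt1c19e* and *cldna* had positive values that did not pass. Outside those classes *jupa*, *dsg2.1* and *krt99* rose and *krt93* and *krt94* fell. In pooled tissue, more cells of a type and more RNA per cell cannot be told apart. Scaling on cardiomyocyte markers instead of all genes changed these counts. It moved the median of all genes by 0.94, and then 40 of the 45 rose and 1, *krt94*, fell, against 8646 and 125 of all 11750 genes. With libraries scaled on epidermal markers that are not among the 63, a choice made after the values were seen that moved the median of all genes by −1.28, 3 rose (*evpla*, *dsg2.1* and *ppl*) and 16 fell. How many of all genes rose or fell under that scaling was not recorded, so counts under it, here and below, have no share beside them. The median of all genes was then −1.25, and such counts are not results about these members.

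**Figure D1:**
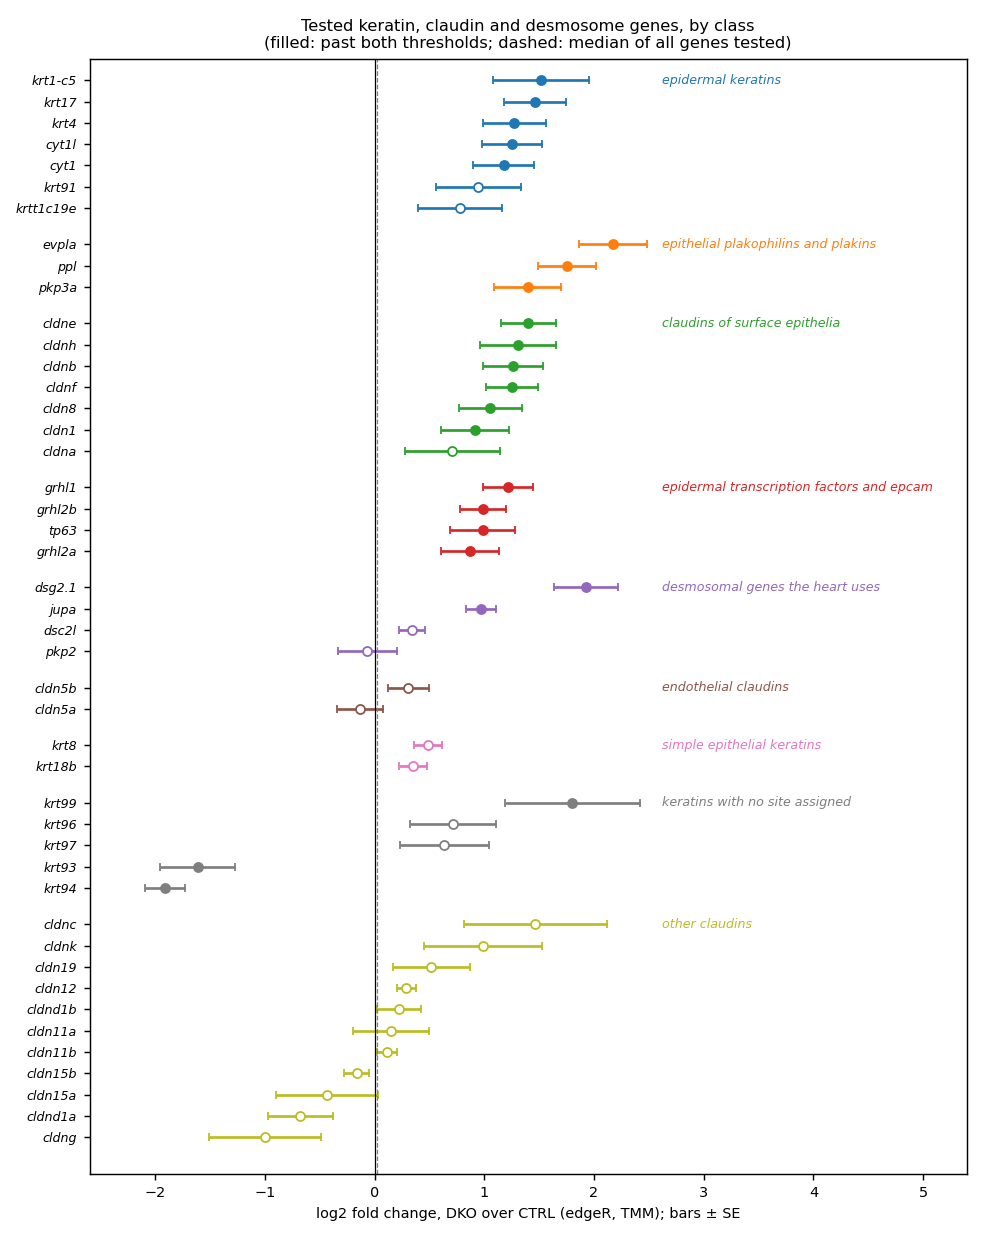
Log2 fold change (DKO over CTRL, horizontal axis) of the 45 tested genes in their 9 classes, with bars of 1 SE; filled points passed both thresholds and the dashed line is the median of all genes tested, 0.02. The 4 epidermal classes at the top lie between 0.71 and 2.17, while *krt93* and *krt94* stand alone at −1.61 and −1.91; scaling on the other epidermal markers moves the median of all genes by −1.28 and turns 21 of the positive values negative.

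The epidermal keratins summed to 5277 to 25260 CPM in CTRL and 18309 to 42071 CPM in DKO libraries. Of 8 members, 7 were tested, 5 rose and 0 fell, with a class median of 1.25. On the epidermal markers the median was 0.17, and 0 of the 7 rose or fell. *krt4*, a type II keratin of the periderm, had 2180 to 9763 CPM in CTRL hearts (median 4631) and 8060 to 17440 in DKO hearts (median 12766). The groups met at their edges, with 6 of 8 DKO libraries above every CTRL library and CTRL replicates 2 and 4 inside the DKO range. The fold change was 2.42 (log2 1.27 ± 0.29, edgeR adjusted p = 0.00296). *cyt1*, a type I keratin of the outer layer, had 1295 to 5909 CPM in CTRL (median 3201) and 4455 to 10185 in DKO hearts (median 7324). Its log2 change was 1.18 ± 0.28 (edgeR adjusted p = 0.00402), and that of its neighbour *cyt1l* was 1.25 (SE 0.28).

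*krt17*, another type I keratin, rose from a median of 34.3 CPM (range 11.9 to 50.3) to 76.6 (45.9 to 132), a log2 change of 1.46 ± 0.28 (edgeR adjusted p = 0.00100). Only 1 DKO library lay below the highest CTRL library. *krt1-c5* rose at very low level, from 0.581 to 2.99 CPM in CTRL to 1.38 to 6.82 in DKO hearts (log2 1.52 ± 0.43, edgeR adjusted p = 0.0124). Both tested keratins that did not pass varied most within CTRL, their highest library exceeding the lowest 7.33-fold (*krtt1c19e*) and 7.46-fold (*krt91*). *krtt1c19e*, a keratin of the basal epidermal layer, had 494 to 3623 CPM in CTRL and 1462 to 5524 in DKO hearts, with a log2 change of 0.78 ± 0.39 (edgeR adjusted p = 0.156). *krt91* had 181 to 1346 and 712 to 2111 CPM (log2 0.95 ± 0.39, edgeR adjusted p = 0.0844) and passed in DESeq2, under scaling on library size alone and without CTRL replicate 4. On the cardiomyocyte markers both passed, at 1.85 (*krt91*) and 1.67 (*krtt1c19e*). The basal keratin *krt5* was left untested by the main filter, with at most 35 reads in any library. A filter of at least 10 reads in 8 libraries let it through. Then 22 members rose, 21 of them shared with the main fit and *krt5* being the addition. Whether it was scarce or poorly counted was not tested.

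*evpla* encodes envoplakin, a linker between keratin filaments and the desmosome, and had 53.4 to 198 CPM in CTRL (median 73.7) and 231 to 783 CPM in DKO hearts (median 368). Every DKO library lay above every CTRL library, DKO replicate 4 being the highest and DKO replicate 8 the lowest. The change was 4.50-fold (log2 2.17 ± 0.31, edgeR adjusted p = 6.61e-05). Its binding partner periplakin, encoded by *ppl*, had 101 to 352 CPM in CTRL (median 157) and 372 to 874 in DKO hearts (median 514), again without overlap. Its log2 change was 1.75 ± 0.27 (edgeR adjusted p = 1.04e-04). The epithelial plakophilin *pkp3a* rose by a log2 fold change of 1.39 (SE 0.30), from 25.7 to 99.1 CPM in CTRL to 67.7 to 199 in DKO hearts, with 6 of 8 DKO libraries above all CTRL libraries. All 3 tested members of this class rose, with a median of 1.75. On the epidermal markers the median was 0.61, and 2 of the 3 rose.

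Among the 10 claudins of surface epithelia, 7 were tested, 6 rose and 0 fell, with a median of 1.25 (0.12 when scaled on the epidermal markers, where 0 rose or fell). *cldne* had 89.8 to 330 CPM in CTRL hearts (median 168) and 313 to 702 in DKO hearts (median 539). All but 1 of the DKO libraries lay above the CTRL range, and the log2 change was 1.40 ± 0.25 (edgeR adjusted p = 4.81e-04). *cldnb*, known from skin and the lateral line, had 61.5 to 243 CPM (median 151) and 219 to 531 CPM (median 372), a log2 change of 1.26 ± 0.27 (edgeR adjusted p = 0.00216). *cldnf*, next to *cldne* in the genome, was the only claudin whose groups did not overlap, at 22.2 to 81.2 CPM in CTRL and 86.4 to 182 in DKO hearts. The log2 fold changes of *cldnh*, *cldnf* and *cldn8* were 1.31, 1.25 and 1.06. *cldn1*, the claudin of the mammalian skin barrier, had 17.7 to 80.4 CPM in CTRL and 48.9 to 128 CPM in DKO hearts. It stood closest to the threshold (log2 0.91 ± 0.31, edgeR adjusted p = 0.0375) and lost its call in 10 of the 16 fits that left out 1 library, at values of 0.77 to 0.92. *cldna* was at 0.494 to 3.57 CPM in CTRL and 1.16 to 5.87 CPM in DKO hearts, with a log2 change of 0.71 (SE 0.43) that did not pass, and *cldn7a*, *cldn7b* and *cldni* had at most 18 reads in any library.

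The transcription factors of surface epithelium also rose, all 4 of the 4 tested, with a median of 0.99 that turned to −0.10 when scaled on the epidermal markers. *tp63* encodes the p63 factor that specifies basal epidermal cells. It had 20.4 to 109 CPM in CTRL (median 47.8) and 77.2 to 156 in DKO hearts (median 123), with CTRL replicates 2, 4 and 5 inside the DKO range (log2 0.99 ± 0.30, edgeR adjusted p = 0.0204). *grhl1*, a grainyhead-like factor of barrier epithelia, had 11.8 to 31.3 CPM in CTRL (median 15.0) and 27.0 to 68.5 in DKO hearts (median 37.9). Here 7 of 8 DKO libraries lay above all CTRL libraries (log2 1.22 ± 0.23, edgeR adjusted p = 5.07e-04). Its relatives *grhl2b* and *grhl2a* had log2 fold changes of 0.99 (SE 0.21) and 0.87 (SE 0.27). *epcam*, which encodes an adhesion molecule of most epithelia, had 0 reads in 13 libraries and at most 2 in any other, in tissue where *cdh1* (E-cadherin) had 87.2 to 208 CPM in CTRL and 197 to 342 in DKO hearts. Whether *epcam* and the other members with few or no reads were absent or could not be counted was not tested.

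**Figure D2:**
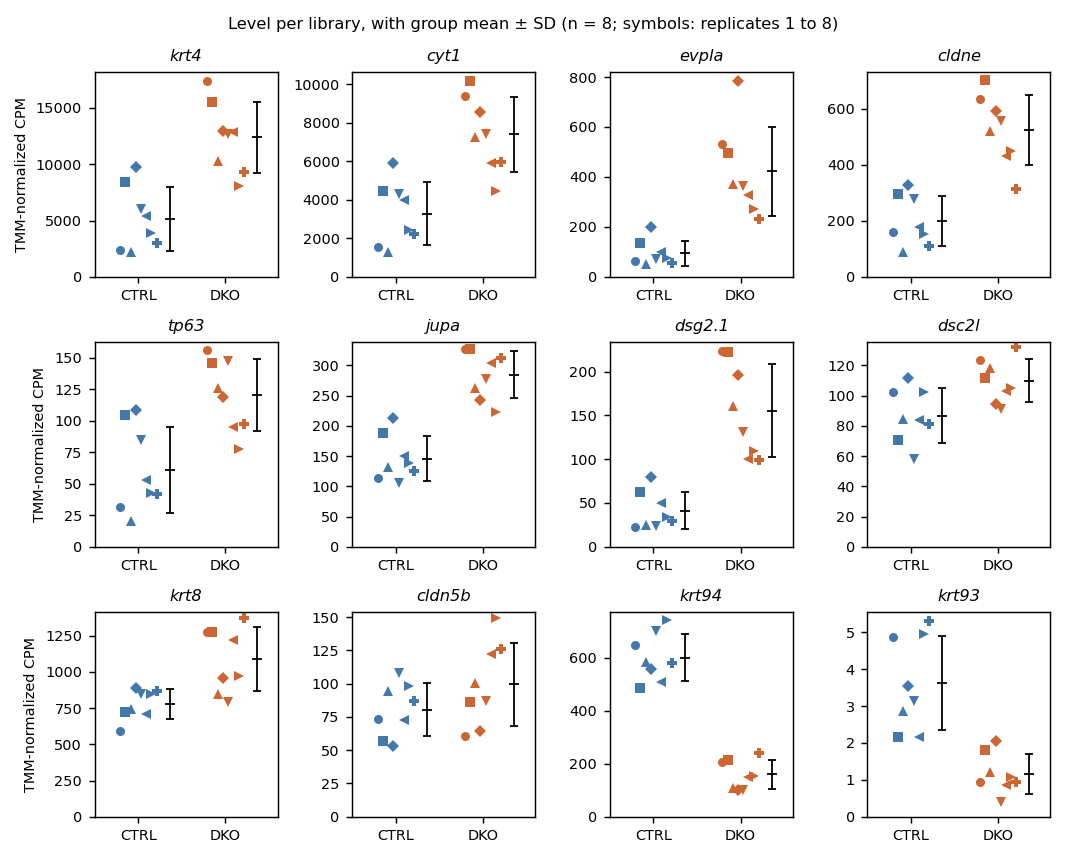
TMM-normalized CPM (vertical axes, starting at 0) of 12 genes in each CTRL (blue) and DKO (orange) library, with the group mean and SD (n = 8) at the right of the points and 1 symbol per replicate number. *evpla*, *jupa* and *dsg2.1* are higher in every DKO library and *krt94* and *krt93* lower, whereas in *krt4*, *cyt1* and *tp63* the highest CTRL libraries (replicates 2 and 4) reach into the DKO range.

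Of the desmosomal genes that the heart uses, all 4 were tested, 2 rose and 0 fell, with a median of 0.65 that turned to −0.59 on the epidermal markers. The class name states a known use and not which of the dissected cells gave the reads. *jupa*, the gene of plakoglobin, a protein of both desmosomes and adherens junctions, had 105 to 213 CPM in CTRL (median 135) and 223 to 327 in DKO hearts (median 291). The groups did not overlap, and the log2 change was 0.97 ± 0.14 (edgeR adjusted p = 2.07e-05), turning to −0.23 when scaled on the epidermal markers. *dsg2.1*, a desmoglein gene, had 23.0 to 80.1 CPM in CTRL (median 31.7) and 99.0 to 224 in DKO hearts (median 146), once more without overlap. Its log2 change was 1.92 ± 0.29 (edgeR adjusted p = 1.09e-04). Within CTRL, *dsg2.1* and *jupa* were highest in replicates 4 (80.1 and 213 CPM) and 2 (62.3 and 188 CPM), the libraries with the highest summed level of the epidermal classes, and *dsg2.1* ranged 3.48-fold. The other genes of the class, *dsc2l* and *pkp2*, were also highest in CTRL replicate 4 (112 and 14.3 CPM). In CTRL replicate 2 they had 70.4 and 6.61 CPM. The part of the epidermal level in these results was not tested. The desmocollin gene *dsc2l*, which adjoins *dsg2.1*, moved far less: 58.0 to 112 CPM in CTRL and 90.8 to 132 CPM in DKO hearts, with a log2 change of 0.34 ± 0.12 (edgeR adjusted p = 0.0412) that was under the fold threshold. *pkp2*, the plakophilin of the intercalated disc in mammals, had 6.15 to 14.3 CPM in CTRL and 2.61 to 11.3 CPM in DKO hearts. Its log2 change was −0.07 ± 0.27 (edgeR adjusted p = 0.895), and its interval of 2 SE ran from −0.61 to 0.48.

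Over all genes tested the groups did not overlap upwards in 1.29% and downwards in 4.38%. Among the 45 tested here they were apart upwards in 5 (*evpla*, *ppl*, *dsg2.1*, *jupa* and *cldnf*) and downwards in 2 (*krt94* and *krt93*).

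Neither endothelial claudin rose or fell in edgeR with TMM scaling or in DESeq2, and 0 of the 2 reached an unadjusted p under 0.05. Their median was 0.09, turning to −1.23 on the epidermal markers, where both fell and the median of all genes was −1.25. On the cardiomyocyte markers it was 0.99 and both rose (*cldn5a* 0.83, *cldn5b* 1.15), against a median of 0.96 and 8646 risers over all 11750 genes. Both medians were near those of all genes, so neither shift is a result about these claudins. *cldn5b* had 52.9 to 108 CPM in CTRL (median 80.2) and 60.9 to 149 CPM in DKO hearts (median 93.5), a log2 change of 0.30 ± 0.19 (edgeR adjusted p = 0.257, interval of 2 SE −0.07 to 0.68). *cldn5a* had 7.09 to 15.8 and 7.05 to 17.5 CPM, or a log2 change of −0.13 ± 0.21 (edgeR adjusted p = 0.703, interval −0.56 to 0.29), and reversed to 0.02 with library size alone. Within CTRL, *cldn5b* was lowest in replicates 4 and 2, the libraries with the highest summed level of the epidermal classes. Of 16 tested endothelial markers such as *esama* and *tek*, 9 fell and 1 (*etv2*) rose, with a median of −0.61 that turned to 0.25 on the cardiomyocyte markers.

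The simple epithelial keratins *krt8* and *krt18b* form the filament pair of single-layered epithelia. *krt8* had 592 to 890 CPM in CTRL (median 794) and 794 to 1376 CPM in DKO hearts (median 1097), with 6 of 8 DKO libraries above the CTRL range. The log2 change was 0.49 ± 0.13 (edgeR adjusted p = 0.00599), under the fold threshold. *krt18b* had 114 to 190 CPM in CTRL and 141 to 261 CPM in DKO hearts, at a log2 change of 0.35 ± 0.13 (edgeR adjusted p = 0.0483). Both turned negative on the epidermal markers (−0.75 and −0.94) and passed on the cardiomyocyte markers (1.40 and 1.31), and *krt8* also passed with library size alone (0.63). *krt18a.1* had at most 2 reads.

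*krt94* had 485 to 741 CPM in CTRL hearts (median 582) and 99.3 to 242 in DKO hearts (median 152), so that the groups were far apart. The fall was 3.76-fold (log2 −1.91 ± 0.18, edgeR adjusted p = 2.97e-07) and passed under the scaling on cardiomyocyte markers as well, at −0.98. In CTRL hearts its highest library exceeded its lowest 1.53-fold, against 4.14- to 7.46-fold for the 6 epidermal keratins with a mean of at least 10 CPM, and CTRL replicate 2, near the top for those keratins, was the lowest for *krt94*. *krt93*, the adjacent gene, fell at a low level, from 2.16 to 5.31 CPM in CTRL (median 3.34) to 0.387 to 2.05 in DKO hearts (median 1.02). Its log2 change was −1.61 ± 0.34 (edgeR adjusted p = 0.00147) and was −0.62 on the cardiomyocyte markers, where it no longer passed (edgeR adjusted p = 0.162, the highest of its alternatives, the lowest being 2.81e-06).

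The remaining keratins of this class did not follow *krt94*. *krt99*, from the same stretch of the genome, had 0 to 5.20 CPM in CTRL and 2.09 to 8.42 CPM in DKO hearts. Its log2 change of 1.80 ± 0.61 (edgeR adjusted p = 0.0340) was carried by few reads and lost its call in 9 of the 16 fits without 1 library, over which it ranged from 1.61 to 2.54. *krt97* had 47.4 to 455 CPM in CTRL (median 213) and 203 to 646 CPM in DKO hearts (median 267), a log2 change of 0.64 ± 0.40 (edgeR adjusted p = 0.279), and *krt96* one of 0.72 (SE 0.39). *krt15*, *krt92*, *krt95* and *krt98* had at most 8 reads in any library, *krt95* and *krt98* 0 in all 16.

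None of the 11 tested genes among the 19 other claudins rose or fell in edgeR with TMM scaling, all 16 libraries and no block. None did in DESeq2 either, and 3 of the 11 had an unadjusted edgeR p under 0.05. Their median was 0.15, turning to −1.15 on the epidermal markers, where 8 fell and the median of all genes was −1.25. On the cardiomyocyte markers it was 1.02 and 8 rose, against a median of 0.96 and 8646 risers over all 11750 genes. Both medians were near those of all genes, so neither count is a result about these claudins. *cldn12* had 83.8 to 119 CPM in CTRL (median 109) and 112 to 149 CPM in DKO hearts (median 126), a small and even difference (log2 0.29 ± 0.09, edgeR adjusted p = 0.0186) under the fold threshold. *cldn11b* was nearly level at 40.2 to 50.2 CPM and 40.6 to 58.2 CPM (log2 0.12 ± 0.09, edgeR adjusted p = 0.393). The others lay between −0.999 (*cldng*) and 1.47 (*cldnc*), the latter at 0.103 to 7.71 CPM in CTRL and 1.53 to 19.4 CPM in DKO hearts, and called only when scaled on cardiomyocyte markers or with the replicate number as a block. The 8 untested genes had at most 29 reads.

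Libraries of the same group differed widely from each other. The summed level of the 4 epidermal classes ran from 5735 to 26933 CPM in CTRL libraries, a 4.70-fold range, and from 20331 to 45666 in DKO libraries, a 2.25-fold range. DKO replicate 7 (20331 CPM) lay below CTRL replicate 2 (21988) and CTRL replicate 4 (26933), and 6 of 8 DKO libraries lay above all CTRL libraries. The same libraries led across genes. Of the 21 tested epidermal genes, 15 were highest among CTRL libraries in replicate 4 and 15 lowest in replicate 3. Among DKO libraries, 11 were highest in replicate 2, and 10 were lowest in replicate 7 and 9 in replicate 8. Leaving out each library in turn left between 19 and 22 of the 45 genes higher and between 2 and 3 lower.

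**Figure D3:**
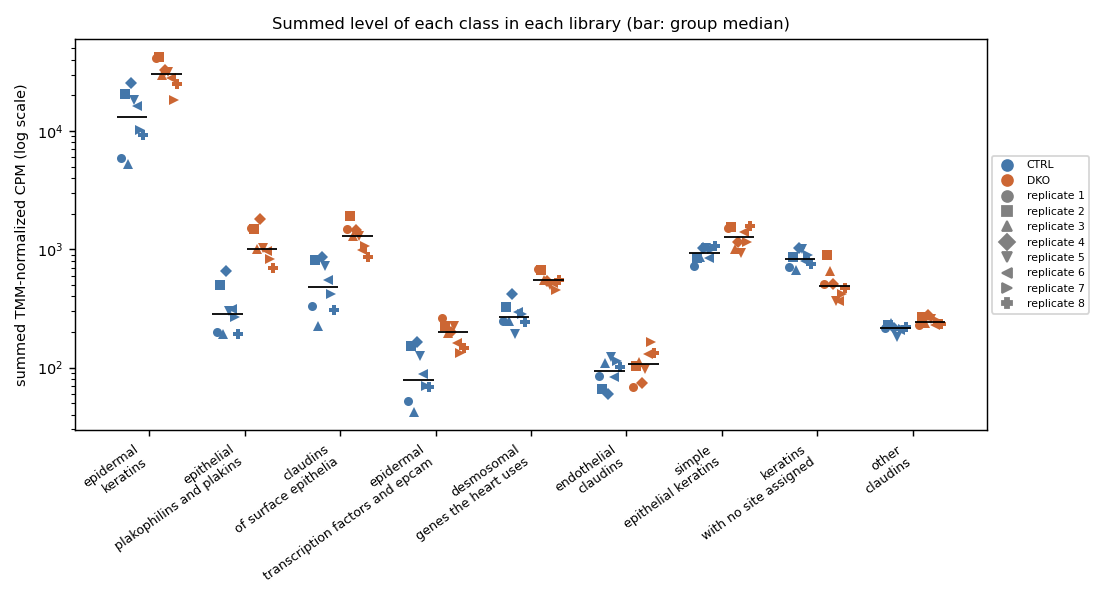
Summed TMM-normalized CPM of each class (log axis) in every CTRL (blue) and DKO (orange) library, with 1 symbol per replicate number and a bar at the group median. The epidermal classes spread widely in CTRL hearts with replicates 2 and 4 at the top, whereas the simple epithelial keratins spread less, with 6 of 8 DKO libraries above every CTRL library, and the endothelial claudins overlap widely between groups (60.0 to 122 CPM in CTRL and 68.1 to 165 in DKO).

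Ratios of 2 genes within a library do not depend on how libraries are scaled, so each of the 31 other members with a mean of at least 10 CPM was set over *krt4*. The comparison was chosen after the values were seen and was not tested. In 30 of the 31 the CTRL and DKO ranges overlapped, and in 1 they were apart downwards. Of all 8075 tested genes with a mean of at least 10 CPM, 12.5% were apart downwards and 0% upwards. The exception was *krt94*, with 56.9 to 273 reads per 1000 reads of *krt4* in CTRL libraries and 7.68 to 26.1 in DKO libraries. For *cyt1l* the ratio was nearly fixed, at 440 to 579 reads in CTRL and 408 to 564 in DKO hearts, although the gene's own CPM ranged 4.14-fold over CTRL libraries. The ratio of *cyt1l* to *cyt1* itself spanned only 755 to 860 reads per 1000 in CTRL and 780 to 890 in DKO libraries. *tp63* had 9.33 to 14.1 reads per 1000 of *krt4* in CTRL (median 11.8) and 7.37 to 12.3 in DKO libraries (median 9.49), with 1 of 8 DKO libraries above the CTRL median. *evpla* shifted upwards with a narrow overlap, from 11.8 to 26.9 reads (median 19.1) to 24.9 to 60.6 (median 31.3). Since *krt4* itself rose (log2 1.27, with a median of 0.02 over all genes tested), a gene that kept its level falls in this ratio. The mean log ratio to *krt4* was lower in DKO libraries for 24 of the 31. For 11 of the 31 no DKO library lay above the CTRL median, namely *krt94*, *krt8*, *krt18b*, *dsc2l*, *grhl2b* and the claudins *cldn5a*, *cldn5b*, *cldn11b*, *cldn12*, *cldn15b* and *cldnd1b*. Neither count was made over all genes, so they have no share beside them and are not results about these members. The median of *krt8* went from 181 to 82.4 reads and that of *cldn5b* from 21.8 to 8.17.

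**Figure D4:**
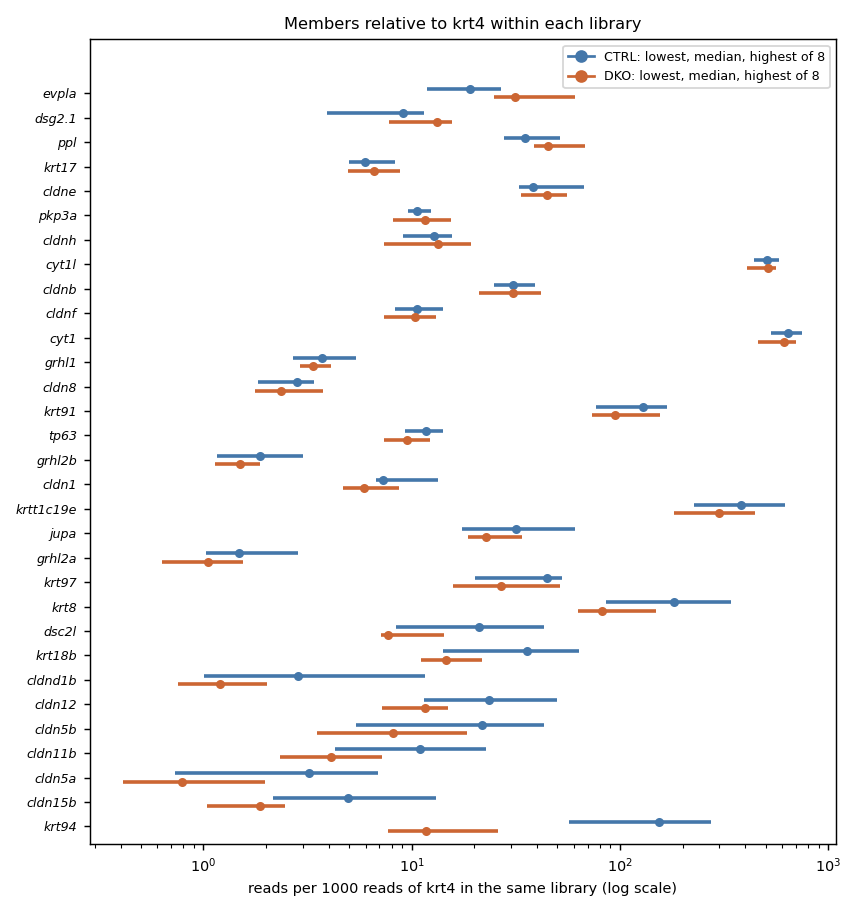
Reads of each gene per 1000 reads of *krt4* in the same library (log axis), as the lowest, median and highest of 8 CTRL (blue) and 8 DKO (orange) libraries, ordered by the change of the mean log ratio. Only for *krt94*, at the bottom, are the ranges apart (57 to 273 against 7.7 to 26 reads), and for *evpla*, at the top, they meet only between 24.9 and 26.9 reads.

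Several members are neighbours on the GRCz12tu assembly as annotated by RefSeq, used here for names and order only since the reads were aligned to GRCz11. All 63 symbols matched it, and 31 lie within 3 protein-coding genes of another member. *krtt1c19e*, *krt92*, *cyt1l*, *cyt1*, *krt17* and *krt91* form a run of 6, in which 3 rose and 0 fell. Another run of 6 holds *krt93*, *krt94*, *krt98*, *krt15*, *krt99* and *jupa*, in which 2 fell and 2 rose, so that neighbours moved in opposite directions. *cldne*, *cldnf* and *cldna* adjoin *cldnj*, and *cldnh* and *cldnb* lie with *cldnc* and *cldnd*. Such tandem copies can be similar in sequence, and how far the count divided reads between them is uncertain, since 12.8% to 16.4% of reads were not aligned uniquely and the strand setting is not given in the sources used here.

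Genes of the same structures that are not among the 63 were read from lists. Of 22 tested genes of other epidermal functions, 16 rose and 0 fell, with a median of 1.15 (0.02 when scaled on the same list) and summed levels of 2263 to 5470 CPM in CTRL and 4554 to 10420 CPM in DKO hearts. They included *cdh1* (log2 1.07, SE 0.17), the splicing regulator *esrp1* (1.55, SE 0.25) and the protease gene *st14a* (1.39, SE 0.23). Of 14 tested tight junction partners, 7 rose and 0 fell, with a median of 0.86 that turned to −0.43 on the epidermal markers. The occludin genes *oclnb* (log2 1.52, SE 0.24) and *oclna* (1.34, SE 0.23) rose without overlap of the groups, and *tjp3*, *tjp2a*, *marveld2b*, *f11r.1* and *cgnb* by 1.08 to 1.44. The other 7 lay between −0.40 (*jam2a*) and 0.64 (*pard6b*), *tjp2b* (0.43, edgeR adjusted p = 0.00816) and *jam2b* (0.58, edgeR adjusted p = 0.0411) passing the p-value but not the fold threshold.

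Of 11 tested genes of adherens junctions and the intercalated disc other than the 63, 0 rose and 1 fell, with a median of −0.31. On the cardiomyocyte markers the median turned to 0.62, and 5 rose and 1 fell. Over all 11750 genes that scaling gave a median of 0.96, with 8646 higher and 125 lower. With TMM scaling, 1 of the 11 had an unadjusted edgeR p under 0.05 upwards and 6 downwards. DESeq2 called 0 of the 11 higher and 1 lower. *nrap*, whose product binds actin at the disc, fell by 2.24 on the log2 scale (SE 0.29), and *cdh2* (N-cadherin) was at −0.53 (SE 0.16, edgeR adjusted p = 0.0181), under the fold threshold. Among 10 tested genes of other intermediate filaments, the desmin genes *desmb* (log2 −3.24, SE 0.33) and *desma* (−0.80, SE 0.21) fell and plectin *pleca* (0.94, SE 0.17) rose. Their median was 0.16. On the cardiomyocyte markers it was 1.07, and 7 rose and 1 fell, so that only 1 fall was left.

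Other cell types moved between the groups as well, and their part in these results was not tested. Of 23 tested cardiomyocyte markers 16 fell and 0 rose (0 also in DESeq2 and at an unadjusted p under 0.05), with a median of −0.87. Of 15 pharyngeal arch and neural crest markers 9 rose (summed 602 to 1215 CPM in CTRL and 1041 to 1664 in DKO), with a median of 0.68 that turned to −0.57 on the epidermal markers. Of 8 leukocyte markers 5 rose (349 to 610 and 457 to 1055 CPM), with a median of 0.73 that turned to −0.52. Of 6 ionocyte markers 1 rose, with a median of 0.98 that turned to −0.06, and of 9 epicardial markers 1 rose and 1 fell. The rising ionocyte gene was *slc12a10.2* (log2 1.86, SE 0.49), a cotransporter gene, and *foxi3a*, a factor of these skin cells, had 1.51 to 22.6 CPM in CTRL and 9.27 to 48.2 in DKO hearts. Of the 148 list genes in the count tables, 10 were listed at 0 in all 16 libraries, among them *foxi3b*, *esrp2* and *mpeg1.1*, and whether they were absent or could not be counted was not tested.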

How the data were processed

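Each library held poly(A) RNA of pooled hearts, sequenced as paired reads of 150 bases. The authors aligned reads to GRCz11 with STAR 2.6.1a and, with HTSeq 0.11.2, assigned them to RefSeq genes, and the deposited counts are raw. The strand setting is not given in the sources used here. The deposited FPKM values, which the authors scaled by gene length, served only as an alternative filter (over 5 in a library). Their columns were matched to libraries by the short names of the count tables. Rows that name no gene (59.6% to 65.6% of sorted reads on no feature) were left out. Counts were tested in edgeR 4.0.16 (R 4.3.3) by the quasi-likelihood F-test with TMM scaling and filterByExpr, on all 16 libraries without covariates, and Benjamini-Hochberg adjustment ran over all 11750 genes tested. Thresholds were an adjusted p of 0.05 and 1.5-fold. Depth set the precision of genes with few reads, and counting error is only part of the spread. DESeq2 1.42.0, other scalings and filters, a replicate block and leaving out each library were tried. Simulated data with 200 genes changed by 1 on the log2 scale for the CTRL against DKO comparison returned 121 of them in edgeR, over 11546 genes. The members, classes and lists were chosen with earlier results of these data known. Full values are given for the 2 tested members of highest mean CPM in each class and the 6 largest changes in each direction, and classes of up to 5 genes are given whole. Within each group no library was a duplicate of another, the lowest chi-square per gene for a pair being 10.8 in CTRL and 21.6 in DKO. Pairs of a CTRL and a DKO library were not compared.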

Additional observations from a re-analysis of the deposited data

Results flagged for a closer look

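Of 110 groups of 8 libraries examined for these genes and their classes, 5 held 1 library far from the rest by Dixon's test, where chance gives about 1 in 20. *cldn11a* was at 9.72 CPM in DKO replicate 6, with the next DKO library at 4.05. *cldnd1b* was at 25.3 CPM in CTRL replicate 3, the next being 13.4. *cldn19* was at 0.348 CPM in CTRL replicate 1, the next lowest being 2.39. *krt99* was at 5.20 CPM in CTRL replicate 4, with the next at 2.09, and *pkp2* at 14.3 CPM in the same library, with the next at 9.19. CTRL replicate 4 was also the CTRL library with the highest summed level of the epidermal classes, 26933 CPM. The part of that in these values was not tested.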

How the results depend on the processing

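Over the single genes and all settings, 1032 values kept direction and call, 28 gained a call, 33 lost one and 32 changed sign. Scaling on cardiomyocyte markers gave 40 of the 45 tested genes higher and 1 lower, and 8646 and 125 of all genes. Of the 45, it reversed *cldn15a* (0.54), *cldn15b* (0.80), *cldn5a* (0.83), *cldnd1a* (0.25) and *pkp2* (0.83). Scaling on the other epidermal markers, chosen after seeing the data, gave 3 higher and 16 lower of the 45, with no count over all genes recorded. It reversed *cldn1* (−0.15), *cldn8* (−0.025), *cldna* (−0.45), *cldn11a* (−0.99), *cldn11b* (−1.15), *cldn12* (−1.02), *cldn19* (−0.62), *cldn5b* (−0.95), *cldnd1b* (−1.15), *cldnk* (−0.065), *dsc2l* (−0.95), *jupa* (−0.23), *grhl2a* (−0.30), *grhl2b* (−0.13), *tp63* (−0.076), *krt8* (−0.75), *krt18b* (−0.94), *krt91* (−0.10), *krt96* (−0.41), *krt97* (−0.39) and *krtt1c19e* (−0.26). Library size alone moved the median of all genes by 0.14 and the calls from 1065 higher and 1004 lower to 1530 and 736, with 23 and 2 among the 45, and reversed *cldn5a* (0.017) and *pkp2* (0.068). A deposited FPKM over 5 left 14 of the 45 higher and 1 lower, and 390 and 548 of all genes; *jupa* and *tp63* had no FPKM value. A 2-fold threshold left 564 and 400 of all genes, and no fold threshold gave 1631 lower. DESeq2 gave 22 and 2 of the 45. Without 1 library, 19 to 22 of the 45 were higher and 2 to 3 lower, and 935 to 1167 and 917 to 1085 of all genes; *pkp2* then ranged from −0.16 to 0.084 and *cldn11a* from −0.24 to 0.26, the negative end without DKO replicate 6. Without CTRL replicate 4, *krt91* (1.17) and *cldnd1a* (−0.81) passed. *cldn1* lost its call with no filter on low counts (0.91) and without any 1 of CTRL replicates 1, 3, 6, 7 and 8 or DKO replicates 1, 2, 4, 5 and 8, and *krt99* without any 1 of CTRL replicates 3, 5, 6, 7 and 8 or DKO replicates 1, 2, 4 and 6.

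Over all genes tested, the correlation of same-numbered deviations ran from −0.27 to 0.11, above 0.1 in 3 of 8 numbers. In that measure 0 CTRL libraries correlated best with the DKO library of their own number. The study states that DKO embryos were compared with siblings of the same clutch. Neither it nor the sample titles say whether same-numbered libraries share crosses, so pairing by number was not settled. With the replicate number as a block, 22 of the 45 were higher and 2 lower, *cldnc* (1.78) being the gain, against 1089 and 1032 of all genes. The block changed the SE of single genes in both directions, from 0.31 to 0.15 for *evpla* and from 0.39 to 0.46 for *krt91*.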
